A study of Homo sapiens with 12 samples.

Results

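The genes described here are 9 genes of the NRF2 oxidative stress response, chosen by name: NFE2L2, KEAP1, HMOX1, NQO1, GCLM, GCLC, TXNRD1, SRXN1 and OSGIN1. Of these 9 genes, 8 had a row among the 20771 genes of the count table, and all 8 passed the filter on low counts that left 16515 genes for testing. The expression of SRXN1, the sulfiredoxin that repairs over-oxidized peroxiredoxins, was not analysed here, and only its promoter window was searched. RNA was sequenced from EW8-RRM1-KO and TC71-RRM1-KO, lines derived from the Ewing sarcoma cell lines EW8 and TC71, in 12 libraries, with 3 libraries in each of 4 groups. The groups were EW8 labelled 0 h, EW8 labelled 48 h, TC71 labelled 0 h and TC71 labelled 48 h, where 0 h stands for cells kept in doxycycline and 48 h for cells from which doxycycline had been removed for 48 h. Cells of all 4 groups carried a CRISPR/Cas9 knockout of RRM1, the large subunit of ribonucleotide reductase, together with a lentiviral, doxycycline-inducible and codon-optimized RRM1 gene. The lines had been single cell cloned, so each line stands for its clone, and with these groups the removal of doxycycline and the loss of RRM1 cannot be told apart.

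NRF2, the protein encoded by NFE2L2, is a transcription factor of the cap'n'collar family. In unstressed cells KEAP1 holds NRF2 and presents it to a CUL3 ubiquitin ligase for degradation. Oxidants and electrophiles modify cysteines of KEAP1, NRF2 escapes degradation, pairs with a small MAF protein (MAFF, MAFG or MAFK) and binds antioxidant response elements near its targets, where BACH1 can compete with it as a repressor. Much of this control acts on the NRF2 protein, which was not measured here. Classical targets include HMOX1, NQO1, the glutamate-cysteine ligase subunits GCLC and GCLM, TXNRD1, SRXN1 and OSGIN1.

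Counts per library summed to between 18468485 and 35698991. RRM1 was counted at 214, 166 and 317 in EW8 at 0 h and at 1201, 1449 and 1514 in the EW8 libraries labelled 48 h (log2 fold change 2.88, adjusted p = 3.37e-27), and at 422, 316 and 418 against 674, 707 and 778 in TC71 (0.65, adjusted p = 2.91e-09). Counts at the RRM1 gene were thus higher after removal of doxycycline in both lines. The mRNA of the inducible gene was not measured apart, so the total of RRM1 mRNA is not known. A Cas9 knockout need not remove the mRNA and the inducible gene is codon-optimized, so these counts do not check the knockout, and the labels were used as given. The Ewing sarcoma markers CD99 (236 to 343 CPM), NR0B1 (76.6 to 166 CPM) and PAX7 (142 to 246 CPM) were present in all libraries, NKX2-2 was low (7.33 to 17.9 CPM), and the leukocyte gene PTPRC (0 to 0.219 CPM) and the hepatocyte gene ALB (0 to 0.248 CPM) were at or near 0. The epithelial gene EPCAM was at 0.115 to 1.6 CPM, and the fibroblast genes COL1A1 (9.64 to 42.2 CPM) and DCN (13.1 to 31.1 CPM) were present in all libraries; their part in the results was not tested. CPM stands for counts scaled to a common library size with TMM factors. No source says whether the 3 libraries of a group came from separate cultures, so the p-values measure only the spread between these libraries, which may be technical. A chi-square per gene, larger where 2 libraries of a group differ more, was 5.12, 7.83 and 9.48 in TC71 at 48 h. In EW8 at 48 h it was 2.21 to 2.88. The fit shared its estimate of the spread over the 4 groups, so it may understate the spread of TC71 at 48 h.

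The sequence that NRF2 and small MAF proteins are known to bind has the core TGACNNNGC, and windows from 250 bases before to 50 bases after an annotated start (RefSeq, GRCh38.p14) were searched for it on both strands. The 9 genes had 11 windows for 8 genes, HMOX1 being the gene without one. HMOX1 has an annotated transcript, but the set of windows used held none for it, so its promoter was not searched. The core was found in windows of 3 genes, KEAP1, GCLM and TXNRD1, in 4 windows, while 13.3% of the 35116 windows of all genes held it. The windows of NFE2L2, NQO1, GCLC and SRXN1 did not hold these letters. Sites outside the windows were not searched, so a missing match does not mean that a gene lacks the element. The AP-1 type core TGANTCA, which can overlap the other motif, was found in 1 window, that of OSGIN1, and in 7.71% of all windows. Positions count from the annotated start, with -1 just before it. GCLM held 1 match, TGACTAAGC on the opposite strand from -34 to -26. KEAP1 held 2 matches in the same window, TGACTAAGC on the opposite strand from -31 to -23 and TGACACGGC on the strand of the gene from -54 to -46. TXNRD1 held 3 matches over its 2 windows: TGACAAAGC on the opposite strand from -102 to -94 of one start, and TGACTTCGC on the strand of the gene from -99 to -91 and TGACGGAGC on the opposite strand from -8 to 0 of the other. In OSGIN1 the AP-1 type match runs from -97 to -91 on the strand of the gene. The stretches below show 1 match for each of these genes, because their counts are described next; genes and matches were chosen after the values were seen. They read 5′ to 3′ along the strand of the gene, and capitals mark only the match shown, which for KEAP1 is that from -31 to -23 and for TXNRD1 that from -102 to -94; the other KEAP1 match stands in the same stretch in lower case.
GCLM, chr1:93909446-93909504, minus strand: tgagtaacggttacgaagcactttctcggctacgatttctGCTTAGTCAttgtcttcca
KEAP1, chr19:10502784-10502842, minus strand: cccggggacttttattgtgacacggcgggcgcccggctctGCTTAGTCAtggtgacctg
TXNRD1, chr12:104286890-104286948, plus strand: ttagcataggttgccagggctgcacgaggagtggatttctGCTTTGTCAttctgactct
OSGIN1, chr16:83953103-83953159, plus strand: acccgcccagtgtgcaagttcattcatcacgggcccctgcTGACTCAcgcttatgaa

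The NRF2 genes did not move as a block after removal of doxycycline. In EW8, HMOX1 and NFE2L2 rose, GCLM, TXNRD1, GCLC and KEAP1 fell, and NQO1 and OSGIN1 did not pass the test. In TC71, HMOX1, OSGIN1, NQO1, KEAP1 and NFE2L2 rose, TXNRD1 fell, and GCLM and GCLC did not pass it. HMOX1 and NFE2L2 rose and TXNRD1 fell in both lines. Rose and fell refer to an adjusted p below 0.05 in the edgeR quasi-likelihood test, with Benjamini-Hochberg adjustment over all 16515 genes, and upregulated or downregulated to a fold above 2 as well. HMOX1 in EW8 was the only one of the 8 genes past both thresholds, and none was past both in TC71, where 6 of the 8 had an unadjusted p below 0.05 and DESeq2 also called none past both thresholds.

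**Figure D1:**
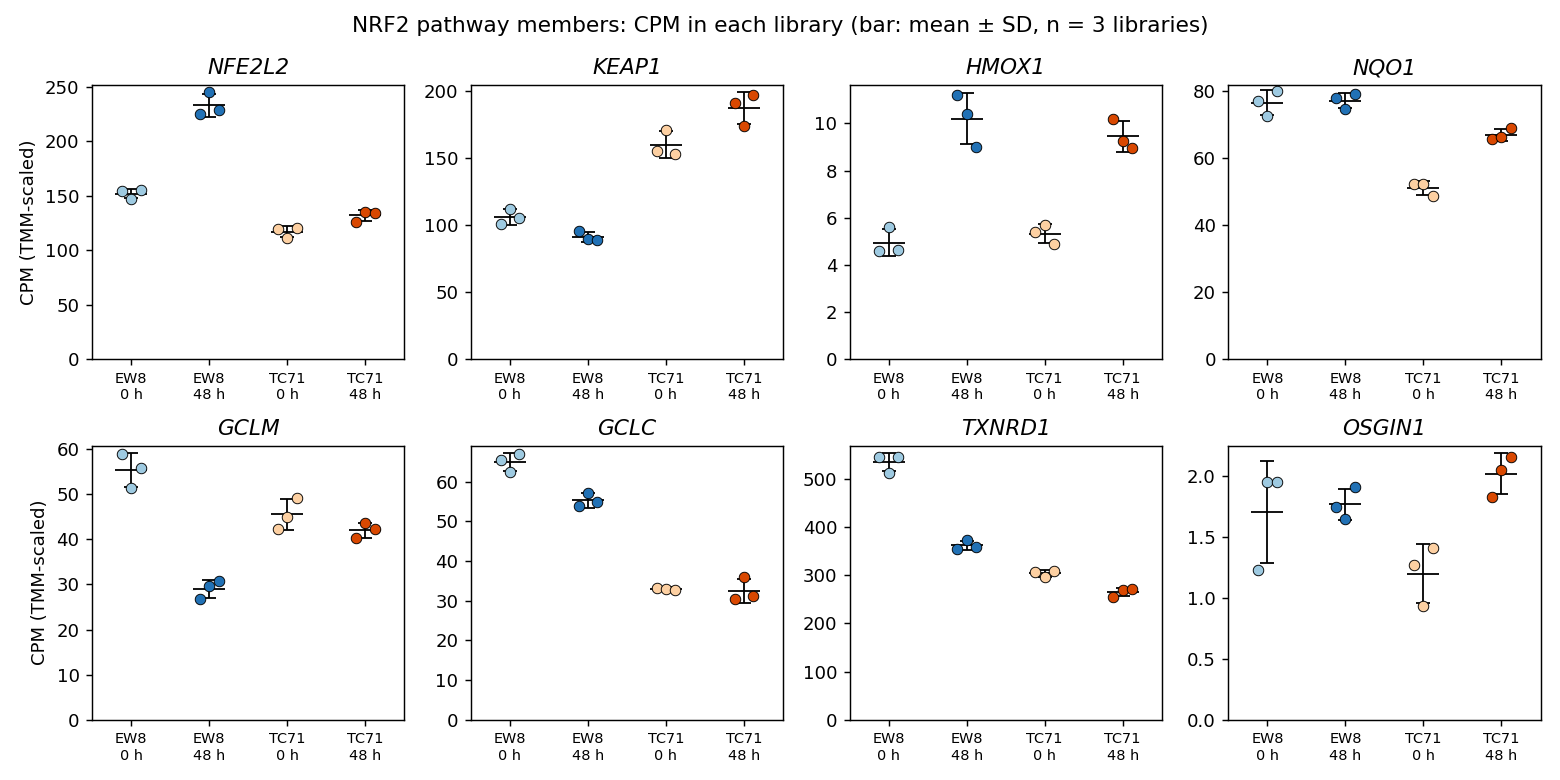
CPM of each of the 8 genes (vertical axes from 0, TMM-scaled) in each of the 12 libraries, by line and label; points are libraries and bars are the mean ± SD of 3 libraries. HMOX1 lies higher at 48 h in both lines (4.94 against 10.2 in EW8 and 5.32 against 9.46 in TC71), while GCLM separates by label in EW8 but overlaps in TC71.

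The shares are read against the whole transcriptome, which moved widely. In EW8, 2 of the 8 genes rose and 4 fell, where 37.0% of all tested genes rose and 31.6% fell, and 1 gene was upregulated and none downregulated, where 13.9% and 3.35% of all genes were. In TC71, 5 rose and 1 fell, where 22.9% of all genes rose and 19.2% fell; 3.26% of all genes were upregulated and 0.854% downregulated. For the 8 genes the median log2 fold change came to -0.10 (EW8) and 0.20 (TC71), beside 0.03 and 0.00 over all genes. Scaling by total counts alone in place of TMM moved the median of all genes to 0.16 in EW8, 0.05 in TC71, 0.12 for the difference between the responses and -0.14 for EW8 against TC71 at 0 h. With that scaling 3 of the 8 genes rose and 2 fell in EW8 (NQO1 joined HMOX1 and NFE2L2, and KEAP1 and GCLC no longer passed), where 43.6% of all genes rose and 24.4% fell, and TC71 kept 5 and 1.

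NFE2L2 lies on chromosome 2 from 177218667 to 177392756 on the minus strand (hg38, GENCODE release 44; the coordinates of each gene span all its annotated transcripts). Its CPM was 154, 147 and 155 in EW8 at 0 h and 225, 245 and 229 at 48 h. In TC71 it was 119, 111 and 120 at 0 h and 126, 135 and 134 at 48 h. The 48 h libraries lay above the 0 h libraries in both lines, and by far more in EW8. NFE2L2 rose by 0.62 on the log2 scale in EW8 (SE 0.04, 95% confidence interval 0.53 to 0.71, adjusted p = 1.96e-14) and by 0.17 in TC71 (SE 0.04, 0.08 to 0.26, adjusted p = 0.00218). Its responses differed by 0.44, with the greater rise in EW8 (adjusted p = 4.08e-07). In the annotation, 190 bases of the canonical NFE2L2 exons overlap an unnamed gene on the other strand that was counted at 0 to 7 per library. Exons of other NFE2L2 transcripts share 11 bases with AGPS and 3509 bases with HNRNPA3, also on the other strand, and both of these genes fell (AGPS by 0.56 and 0.17, HNRNPA3 by 0.82 and 0.25 on the log2 scale in EW8 and TC71). They also share 2037 bases with ENSG00000213963 on the same strand, which was counted at 4 to 54 per library and had log2 fold changes of 0.71 (adjusted p = 0.113) and 0.15 (adjusted p = 0.59).

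KEAP1, the substrate adaptor that targets NRF2 for degradation, lies on chromosome 19 from 10486125 to 10503558 on the minus strand. Its CPM was 101, 112 and 105 in EW8 at 0 h and 95.3, 89.6 and 88.5 at 48 h. The TC71 libraries had 155, 171 and 153 at 0 h and 191, 174 and 197 at 48 h. The EW8 libraries labelled 48 h were all below those labelled 0 h, and the TC71 libraries labelled 48 h all above. KEAP1 fell by 0.21 on the log2 scale in EW8 (adjusted p = 0.00073), a call lost with scaling by total counts alone (-0.09, adjusted p = 0.173), and rose by 0.23 in TC71 (adjusted p = 0.000299). The difference of -0.45 between the responses passed the test (95% confidence interval from -0.60 to -0.30, adjusted p = 5.82e-06).

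HMOX1, the inducible heme oxygenase that degrades heme to biliverdin, iron and carbon monoxide, lies on chromosome 22 from 35380361 to 35394214 on the plus strand. Its CPM was 4.6, 5.61 and 4.61 in EW8 at 0 h and 11.2, 10.4 and 9.01 at 48 h, from counts of 105, 98, 151, 210, 207 and 184. The TC71 values were 5.4, 5.69 and 4.88 at 0 h and 10.2, 9.25 and 8.94 at 48 h, from counts of 145, 116, 118, 267, 248 and 289. HMOX1 was near the same level at the start in both lines, and every 48 h library lay above every 0 h library. HMOX1 was upregulated 2.09-fold in EW8 (log2 fold change 1.06, SE 0.11, 95% confidence interval 0.83 to 1.29, adjusted p = 3.9e-10) and rose 1.78-fold in TC71 (0.83, SE 0.11, 0.61 to 1.05, adjusted p = 1.25e-07). The difference between the responses was 0.23 (95% confidence interval from -0.09 to 0.55, adjusted p = 0.234), so a difference of either sign was not resolved. The fold in EW8 lay close to the threshold of 2: the log2 fold change was 0.99 without replicate 1 of EW8 at 0 h, 0.97 without replicate 3 of that group and 0.99 without replicate 1 of EW8 at 48 h, and the adjusted p stayed below 0.05 each time (highest value 2.34e-07).

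NQO1, a quinone reductase that avoids the formation of semiquinones, lies on chromosome 16 from 69706996 to 69726668 on the minus strand. Its CPM was 77.1, 72.6 and 79.8 in EW8 at 0 h and 77.8, 74.6 and 78.9 at 48 h. In TC71 it was 52.1, 52.2 and 48.6 at 0 h and 65.5, 66.1 and 68.8 at 48 h. The EW8 groups overlapped, whereas the TC71 groups were apart, with the 48 h libraries still below every EW8 library. The log2 fold change in EW8 was 0.01 (95% confidence interval from -0.09 to 0.11, adjusted p = 0.895), with a sign that depended on the scaling (-0.03 with upper-quartile factors, 0.13 with total counts alone). NQO1 rose 1.31-fold in TC71 (0.39, SE 0.05, adjusted p = 9.06e-08), and the responses differed by -0.38 (adjusted p = 2.61e-05). In the annotation, an unnamed gene on the other strand overlaps 347 bases of the canonical NQO1 exons.

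GCLM and GCLC are the modifier and the catalytic subunit of glutamate-cysteine ligase, the enzyme of the rate-limiting step of glutathione synthesis. GCLM lies on chromosome 1 from 93885199 to 93909456 on the minus strand. Its CPM was 58.9, 51.3 and 55.7 in EW8 at 0 h and 26.7, 29.7 and 30.7 at 48 h. In TC71 it was 42.3, 44.9 and 49.2 at 0 h and 40.2, 43.5 and 42.3 at 48 h. The EW8 groups were widely apart and the TC71 groups overlapped. GCLM fell by 0.93 on the log2 scale in EW8 (SE 0.06, 95% confidence interval from -1.06 to -0.80, adjusted p = 9.31e-15), to 0.524 of the level at 0 h, and the log2 fold change in TC71 was -0.11 (95% confidence interval from -0.24 to 0.01, adjusted p = 0.138). The difference of -0.82 was the largest among the 8 genes (adjusted p = 2.6e-09). GCLM was just short of the fold threshold in EW8, and passed it without replicate 2 of EW8 at 0 h (-1.01).

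GCLC lies on chromosome 6 from 53497341 to 53616970 on the minus strand. Its CPM was 65.4, 62.6 and 67 in EW8 at 0 h and 53.8, 57.3 and 54.9 at 48 h. TC71 had 33.3, 33.1 and 32.6 at 0 h and 30.4, 36.1 and 31.1 at 48 h. The catalytic subunit was thus lower at 48 h in every EW8 library, while the TC71 groups overlapped. GCLC fell by 0.23 in EW8 (SE 0.06, adjusted p = 0.000397), less than GCLM, and its log2 fold change in TC71 was -0.02 (95% confidence interval from -0.14 to 0.10, adjusted p = 0.806). With total counts alone the EW8 value was -0.11 (adjusted p = 0.0744), the TC71 value changed sign (0.03), and the difference between the responses went from -0.21 (adjusted p = 0.0312) to -0.14 (adjusted p = 0.154). That difference also missed the threshold without replicate 3 of EW8 at 0 h (adjusted p = 0.0563), replicate 1 or 3 of EW8 at 48 h (0.0724 and 0.0705), replicate 3 of TC71 at 0 h (0.0578) or replicate 2 of TC71 at 48 h (0.168). GCLC-AS1, on the other strand, overlaps 252 bases of the canonical GCLC exons and was counted at 0 to 5 per library.

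TXNRD1, the cytosolic thioredoxin reductase, a selenoprotein that keeps thioredoxin reduced at the expense of NADPH, lies on chromosome 12 from 104215779 to 104350307 on the plus strand. Its CPM was 546, 513 and 546 in EW8 at 0 h and 355, 373 and 359 at 48 h. The TC71 libraries had 307, 296 and 309 at 0 h and 255, 269 and 271 at 48 h. The 48 h libraries were lower in both lines with no overlap, and the EW8 libraries at 48 h remained above all TC71 libraries. TXNRD1 fell by 0.56 on the log2 scale in EW8 (SE 0.04, adjusted p = 4.46e-15) and by 0.20 in TC71 (SE 0.04, adjusted p = 7.95e-05). The difference was -0.36 (95% confidence interval from -0.47 to -0.25, adjusted p = 9.06e-07).

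OSGIN1, an oxidative stress induced growth inhibitor, lies on chromosome 16 from 83931311 to 83966332 on the plus strand and had the lowest counts of the 8 genes. Its CPM was 1.23, 1.95 and 1.95 in EW8 at 0 h and 1.75, 1.65 and 1.91 at 48 h, from counts of 28, 34, 64, 33, 33 and 39. The TC71 values were 1.27, 0.932 and 1.41 at 0 h and 1.83, 2.05 and 2.16 at 48 h, from counts of 34, 19, 34, 48, 55 and 70. The EW8 groups overlapped and the TC71 groups did not. The log2 fold change in EW8 was 0.05 with a wide interval (SE 0.21, from -0.38 to 0.47, adjusted p = 0.86), and leaving out single libraries gave -0.17 to 0.16. OSGIN1 rose 1.66-fold in TC71 (0.73, SE 0.20, 95% confidence interval 0.32 to 1.15, adjusted p = 0.00405). The difference of -0.69 between the responses did not pass the threshold (from -1.28 to -0.09, adjusted p = 0.0518), did so without replicate 1 of EW8 at 0 h (0.0118), replicate 3 of TC71 at 0 h (0.0357) or replicate 1 of TC71 at 48 h (0.0424), and at 19 to 70 counts per library it was not settled either way. Exons of OSGIN1 outside its canonical transcript share 457 bases with MLYCD on the same strand, counted at 25 to 75 per library, with log2 fold changes of 0.25 (adjusted p = 0.311) and 0.13 (adjusted p = 0.594).

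**Figure D2:**
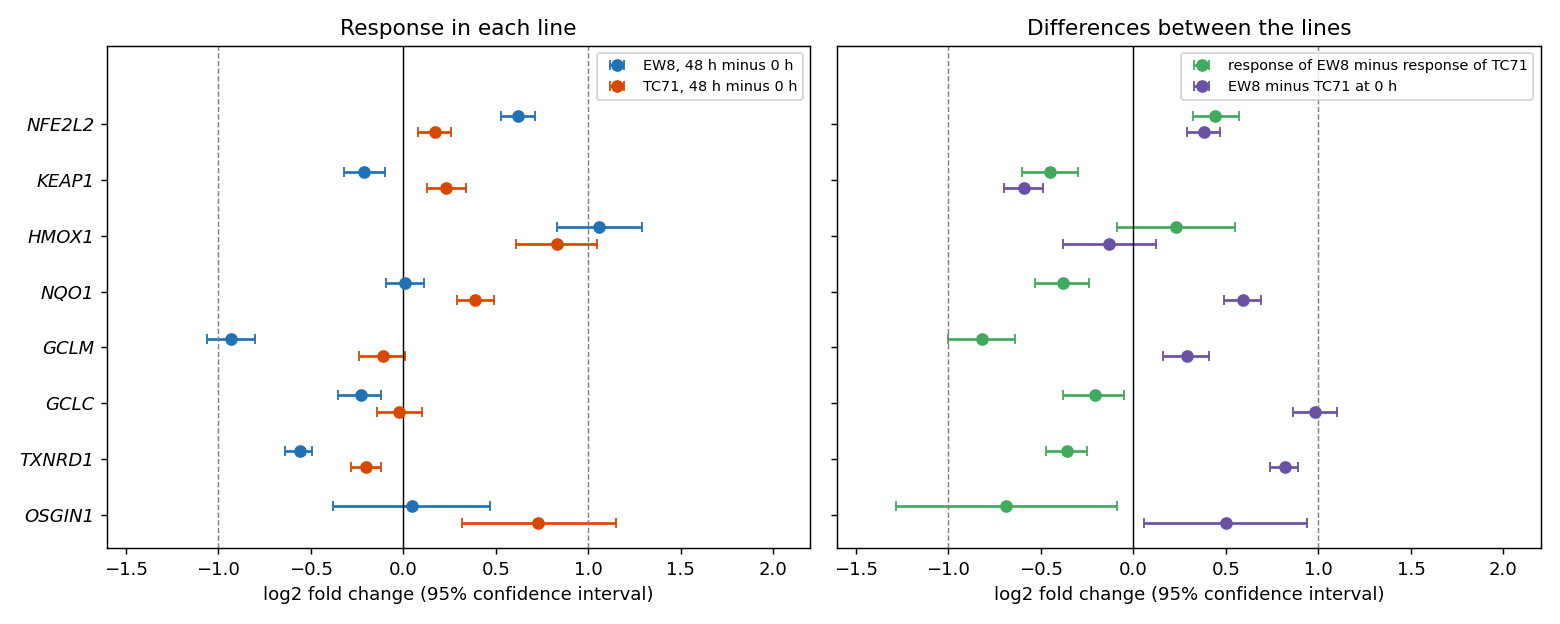
Log2 fold changes of the 8 genes with 95% confidence intervals (horizontal axis; dashed lines mark a fold of 2). The left panel shows 48 h minus 0 h in each line, with HMOX1 at 1.06 in EW8 and 0.83 in TC71 and GCLM at -0.93 and -0.11; the right panel shows the difference between the responses and the difference between the lines at 0 h.

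The responses of the lines were compared by the interaction term of the same fit. Of the 8 genes, 1 (NFE2L2) had a more positive response in EW8 and 5 (GCLM, KEAP1, NQO1, TXNRD1 and GCLC) a more negative one, where 25.7% and 22.4% of all tested genes did. None differed by a fold above 2, where 7.28% of all genes did in the positive and 0.981% in the negative direction; 7 of the 8 had an unadjusted p below 0.05, and DESeq2 also called none past both thresholds. The median difference of the 8 genes was -0.37, and that of all genes was 0.04. The 2 lines thus shared a direction for NFE2L2, HMOX1 and TXNRD1, and KEAP1 moved in opposite directions.

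At 0 h, with doxycycline present, 6 of the 8 genes were higher in EW8 than in TC71 (GCLC, TXNRD1, NQO1, OSGIN1, NFE2L2 and GCLM) and 1, KEAP1, was lower, where 32.8% of all genes were higher and 32.9% lower. None was past a fold of 2, where 4.77% of all genes were higher and 11.9% lower by that measure; 7 of the 8 had an unadjusted p below 0.05, and DESeq2 also called none past both thresholds. GCLC was 1.97-fold higher (65 ± 2.22 against 33 ± 0.392 CPM, SD, n = 3, adjusted p = 1.33e-16), TXNRD1 was 1.76-fold higher (535 ± 18.9 against 304 ± 7.33 CPM, adjusted p = 2.33e-19), and NQO1 was 1.51-fold higher (76.5 ± 3.67 against 51 ± 2.06 CPM, adjusted p = 1.9e-12). KEAP1 was lower in EW8 by 0.59 on the log2 scale (106 ± 5.79 against 160 ± 10.1 CPM, adjusted p = 7.5e-12), and NFE2L2 was higher by 0.38 (152 ± 4.28 against 117 ± 5.05 CPM, adjusted p = 4.39e-09). GCLM was higher by 0.29 (55.3 ± 3.81 against 45.5 ± 3.47 CPM, adjusted p = 0.000101). OSGIN1 was higher by 0.50 (adjusted p = 0.0436) although its libraries overlapped. That call was lost without replicate 2 or 3 of EW8 at 0 h (adjusted p = 0.107 and 0.241), replicate 3 of EW8 at 48 h (0.0512) or replicate 1 or 2 of TC71 at 0 h (0.0683 and 0.186). HMOX1 differed by -0.13 (95% confidence interval from -0.38 to 0.12, adjusted p = 0.378). This compares 2 clones, and it shares its 0 h libraries with both responses and with their difference.

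Per kilobase of the canonical transcript, TXNRD1 had the highest level at 0 h in both lines (139 ± 4.94 CPM per kb in EW8 and 78.8 in TC71), and HMOX1 (3.18 and 3.43) and OSGIN1 (0.89 and 0.626) the lowest. Between them in EW8 stood NFE2L2 (62.1), KEAP1 (41.3), NQO1 (30.3), GCLC (17.2) and GCLM (11.3 CPM per kb), each apart from its neighbours in all libraries. In TC71 at 0 h KEAP1 (62.2) stood above NFE2L2 (47.7) and NQO1 (20.2), and GCLM (9.31 ± 0.714) and GCLC (8.72 ± 0.0953 CPM per kb) overlapped. At 48 h in EW8, NFE2L2 (95.3 ± 4.33) and TXNRD1 (93.9 ± 2.45 CPM per kb) overlapped at the top, and HMOX1 (6.57 ± 0.713) and GCLM (5.95 ± 0.426 CPM per kb) overlapped near the bottom. At 48 h in TC71, KEAP1 (73.0 ± 4.65) and TXNRD1 (68.7 ± 2.26) overlapped, as did GCLM and GCLC (8.6 ± 0.342 and 8.6 ± 0.821 CPM per kb). The order depends on the length used: per kilobase of all annotated exons, which come to 14975 bases for NFE2L2 against 2446 in its canonical transcript, NFE2L2 ranked 4 or 5 of 8 in every group.

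**Figure D3:**
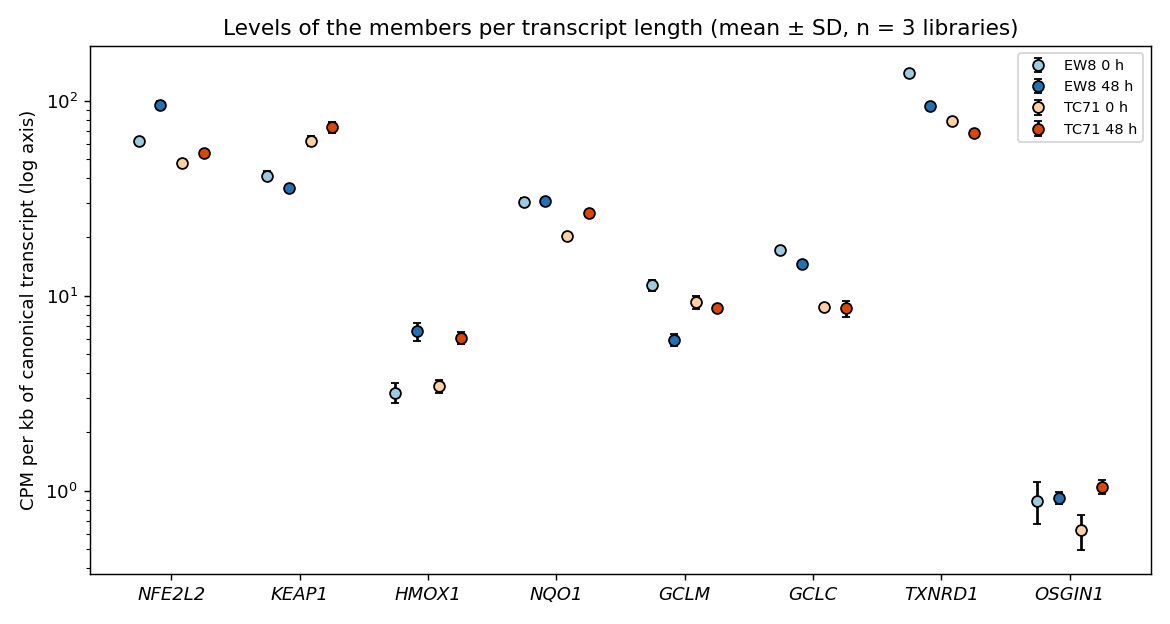
Level of each gene as TMM-scaled CPM per kilobase of canonical transcript (log axis), mean ± SD of 3 libraries in each of the 4 groups. TXNRD1 lies highest at 0 h in both lines (139 in EW8 and 78.8 in TC71) and OSGIN1 lowest in every group.

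Other genes of these pathways were counted from lists written by hand: 86 genes in 7 lists, of which 80 had a row and 79 were tested. In EW8, 16 of the 79 rose, 48 fell and 15 did not pass the test, with 6 upregulated and 2 downregulated; over all tested genes 37.0% rose, 31.6% fell, 13.9% were upregulated and 3.35% downregulated. With total counts alone, EW8 had 23 that rose and 39 that fell, with 7 upregulated and 0 downregulated, and with upper-quartile factors 5 were downregulated. In EW8, 4 were downregulated without replicate 1 or replicate 2 of EW8 at 0 h, and 1 without replicate 3 of EW8 at 48 h. In TC71, 18 rose, 22 fell and 39 did not pass it, with 3 upregulated and 0 downregulated, and DESeq2 left 3 past both thresholds; over all genes 22.9% rose, 19.2% fell, 3.26% were upregulated and 0.854% downregulated, so the counts that rose or were upregulated in TC71 lay near the share of all genes. Which direction was more frequent in TC71 depended on the scaling: 24 rose and 19 fell with total counts alone (all genes 28.0% and 14.2%), and 14 rose and 27 fell with upper-quartile factors (20.5% and 22.8%). These 79 genes had a median log2 fold change of -0.24 (EW8) and -0.01 (TC71), beside 0.03 and 0.00 over all genes. Between the lines, 12 of the 79 had a more positive and 40 a more negative response in EW8, where 25.7% and 22.4% of all genes did. These 2 counts were not repeated with other scalings, and total counts alone moved the shares of all genes to 30.4% and 17.8%. The counts of the single lists below hold for TMM scaling and are to be read against the TMM shares of all genes in the same line. Calls in these lists changed with other scalings, and with 4 to 21 tested genes a list the counts are descriptions.

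Of the 12 regulators and partners of NRF2, EW8 had 5 that rose and 7 that fell, and TC71 had 4 and 6. With total counts alone, the EW8 falls of NFE2L1, NFE2L3 and GSK3B no longer passed. GSK3B, named after its values were seen, then had -0.09 (adjusted p = 0.0507). The small MAF gene MAFF was at 1.05, 0.859 and 1.31 CPM in EW8 at 0 h and at 14.6, 18 and 16.2 CPM at 48 h, and at 1.38, 1.81 and 1.82 against 5.69, 6.27 and 6.56 CPM in TC71. MAFF was upregulated in both lines (log2 fold change 3.86, adjusted p = 3.48e-22, and 1.90, adjusted p = 1.97e-12), by more in EW8 (difference 1.96, adjusted p = 2.41e-08). MAFG, which was far more abundant (55.4 ± 2.25 CPM in EW8 at 0 h, SD, n = 3), rose by 0.75 and 0.16, and MAFK rose by 0.99 in EW8, with 0.43 in TC71 (adjusted p = 0.0526). In TC71 the MAFK value passed with total counts alone (0.48, adjusted p = 0.0352) and the replicate block (0.0486). It also passed without replicate 2 of EW8 at 48 h (0.0421), of TC71 at 0 h (0.0245) or of TC71 at 48 h (0.022). BACH1, the repressor at the same elements, rose by 0.72 in EW8 and 0.14 in TC71. The small TC71 rises missed the threshold without replicate 1 of TC71 at 0 h for MAFG (adjusted p = 0.0785) and without replicate 2 of TC71 at 0 h or replicate 3 of TC71 at 48 h for BACH1 (0.0966 and 0.0754). SQSTM1, an autophagy receptor that can sequester KEAP1, rose by 0.62 and 0.51. CUL3, the ligase scaffold, fell by 0.34 in EW8 and had -0.07 in TC71 (adjusted p = 0.24), and NFE2L1, a relative of NRF2, fell by 0.14 and 0.18, with -0.02 in EW8 under total counts alone (adjusted p = 0.686). NFE2L3, another relative, fell by 0.94 in TC71 and by 0.44 in EW8, where the call was lost with total counts alone (adjusted p = 0.14), with DESeq2 (0.0723) and without replicate 1 or 3 of EW8 at 0 h (0.0666 and 0.096) or replicate 1 or 2 of EW8 at 48 h (0.14 and 0.0582).

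The glutathione list of 21 tested genes had 5 that rose and 12 that fell in EW8, against 4 and 7 in TC71. With total counts alone, CHAC2, GPX1 and GSTO1 no longer passed in EW8 (adjusted p = 0.212, 0.0967 and 0.407). GSTM3 and GGCT then rose in EW8 (0.19 and 0.17, adjusted p = 0.00325 and 0.00181). In TC71 that scaling lost MGST1 and MGST3 (adjusted p = 0.103 and 0.0502) and added GSS as a rise (0.11, adjusted p = 0.0357). These genes were named after their values were seen. CHAC1, which degrades glutathione, rose 4.47-fold in EW8 (10.2 ± 1.57 to 45 ± 1.33 CPM, adjusted p = 2.21e-21) and 1.64-fold in TC71 (8.43 ± 0.885 to 13.8 ± 1.28 CPM, adjusted p = 2.52e-07). SLC3A2, the heavy chain shared by several amino acid transporters, rose 2.97-fold in EW8 (233 ± 7.66 to 691 ± 7.88 CPM) and 1.4-fold in TC71. SLC7A11, the cystine transporter subunit that pairs with SLC3A2 and is itself a known NRF2 target, rose by 0.25 in EW8 and fell by 0.31 in TC71 (difference 0.56, adjusted p = 5.49e-08); it was named after its values were seen. GSTA4, a glutathione transferase for lipid aldehydes, fell by 0.78 and 0.33.

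Of 13 thioredoxin and peroxiredoxin genes, 3 rose and 8 fell in EW8, and in TC71 4 rose and 2 fell. The TC71 rise of TXNRD2 (0.14, adjusted p = 0.0482) was lost with upper-quartile factors (0.104) and DESeq2 (0.0796). The TC71 fall of PRDX1 (-0.10) was lost with total counts alone (adjusted p = 0.217). With that scaling in EW8, SESN1 and TXNRD2 rose (adjusted p = 0.00961 and 0.00222) and PRDX2 no longer passed (0.298). TXNRD2, PRDX1, SESN1 and PRDX2 were named after their values were seen. TXN, the thioredoxin that TXNRD1 reduces, fell by 0.96 in EW8 (177 ± 8.09 to 90.8 ± 4.64 CPM, adjusted p = 4.51e-19) and by 0.20 in TC71 (144 ± 2.04 to 125 ± 5.11 CPM, adjusted p = 0.000419). TXNRD1 and its substrate thus fell in both lines, and TXN fell by more in EW8 (difference -0.76, adjusted p = 1.09e-11). SESN2, a sestrin that restrains mTORC1 signalling, was upregulated in both lines, 5.38-fold in EW8 and 2.08-fold in TC71, and SESN3 was upregulated 2.32-fold in EW8 and rose 1.18-fold in TC71.

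**Figure D4:**
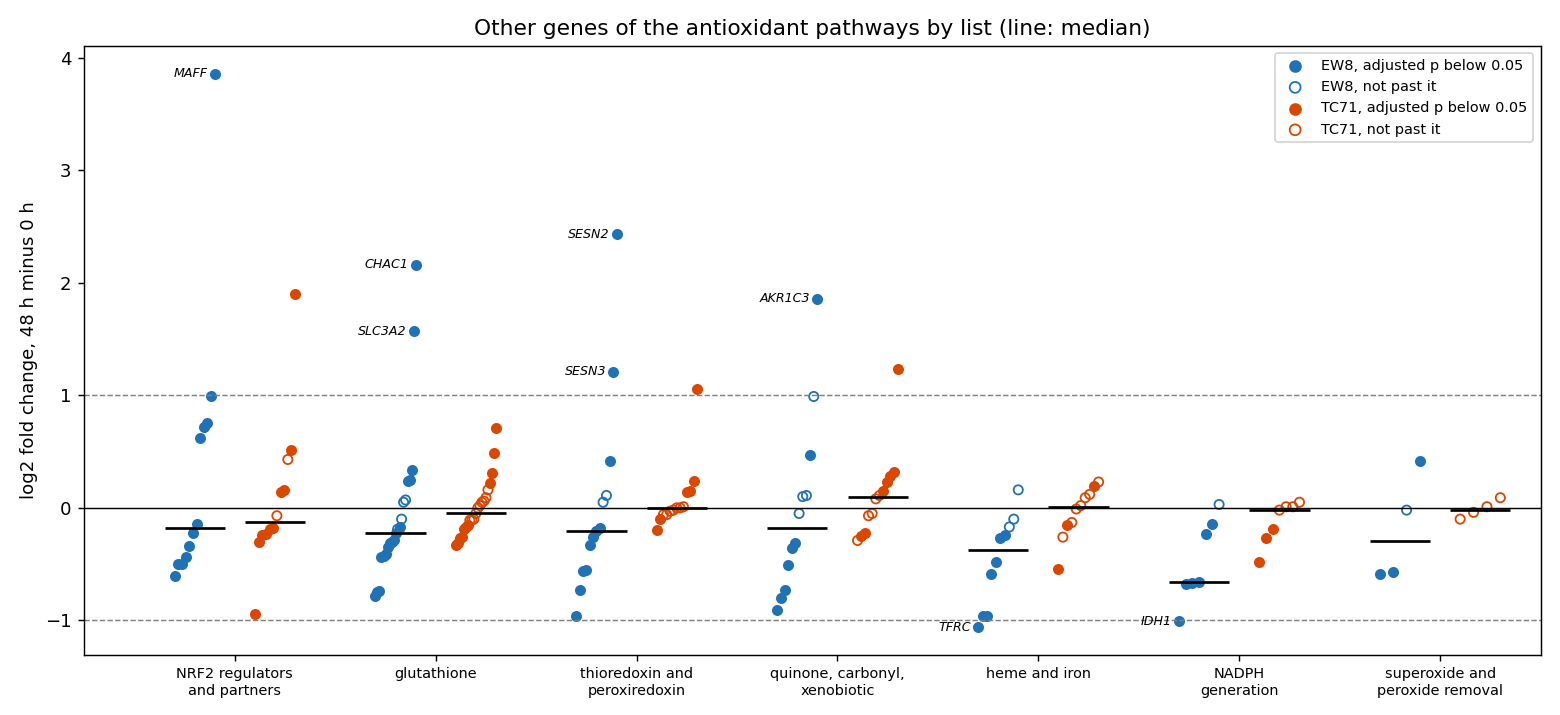
Log2 fold change, 48 h minus 0 h, of the 79 other pathway genes by list (vertical axis; dashed lines mark a fold of 2), with EW8 in blue, TC71 in orange and a line at each median; filled points have an adjusted p below 0.05. Labelled are the EW8 genes past both thresholds, from MAFF at 3.86 to TFRC at -1.06, and the NADPH list has the lowest EW8 median (-0.66).

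Of 12 genes for quinone, carbonyl and xenobiotic detoxification, 2 rose and 6 fell in EW8, whereas 5 rose and 2 fell in TC71. AKR1C3, an aldo-keto reductase with near-identical relatives between which reads may be split, was counted at 14, 20 and 37 in EW8 at 0 h and at 71, 58 and 80 at 48 h (log2 fold change 1.86, adjusted p = 2.01e-07). In TC71 it passed both thresholds from only 4, 5 and 6 against 5, 10 and 28 counts (1.23, adjusted p = 0.0484), with overlapping groups, and 0.42 (adjusted p = 0.585) without replicate 3 of TC71 at 48 h. ALDH3A2, a fatty aldehyde dehydrogenase, fell by 0.91 and 0.22, TRIM16L fell by 0.80 in EW8 with -0.05 in TC71 (adjusted p = 0.662), and AKR1A1 fell by 0.73 and 0.25. EPHX1, an epoxide hydrolase, rose by 0.47 and 0.28, and CBR3, a carbonyl reductase, rose by 0.32 in TC71 with 0.10 in EW8 (adjusted p = 0.444).

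Of the 10 heme and iron genes, none rose and 7 fell in EW8, whereas 1 rose and 2 fell in TC71, where 19.2% of all genes fell. The gene that rose in TC71 was BLVRB, a biliverdin reductase named after its values were seen (0.19, adjusted p = 0.044), which missed the threshold with upper-quartile factors, DESeq2, each line fitted alone and 7 of the 12 fits without 1 library (adjusted p from 0.0524 without replicate 3 of EW8 at 48 h to 0.207 without replicate 3 of TC71 at 0 h), and which passed it in EW8 only with total counts alone (0.29, adjusted p = 0.00415). TFRC, the transferrin receptor that brings iron into the cell, was downregulated in EW8 from 866, 802 and 850 CPM to 393, 426 and 387 CPM (log2 fold change -1.06, adjusted p = 3.46e-22) and fell by 0.15 in TC71 (adjusted p = 0.00177). With total counts alone its EW8 value was -0.94, short of the fold threshold with an adjusted p of 1.69e-19. The iron exporter SLC40A1 fell by 0.96 in EW8, with -0.26 in TC71 (adjusted p = 0.0569), a value that passed with upper-quartile factors (-0.29, adjusted p = 0.0365) and without replicate 2 of TC71 at 48 h (-0.36, adjusted p = 0.015). ABCB6, a porphyrin transporter, fell by 0.96 and 0.54; its TC71 call was lost without replicate 3 of TC71 at 0 h or at 48 h (adjusted p = 0.0602 and 0.0522).

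Of the 7 genes of NADPH generation, 6 fell and none rose in EW8 (median -0.66), and 3 fell and none rose in TC71 (median -0.02). IDH1, the cytosolic NADP-dependent isocitrate dehydrogenase, was downregulated in EW8 (250 ± 6.83 to 125 ± 4.17 CPM, log2 fold change -1.01, adjusted p = 1.21e-20) and fell by 0.48 in TC71. The fold of IDH1 in EW8 lay at the threshold, and its log2 fold change was -0.88 with total counts alone and -0.99 without replicate 1 or replicate 3 of EW8 at 48 h. The pentose phosphate pathway enzyme TKT fell by 0.68 and 0.27, and TALDO1, of the same pathway, fell by 0.67 in EW8 with 0.01 in TC71 (adjusted p = 0.849). Of the 4 genes tested for superoxide and peroxide removal, the superoxide dismutases SOD2 and SOD1 fell by 0.59 and 0.57 in EW8 and CCS, the copper chaperone of SOD1, rose by 0.42, while none passed the test in TC71.

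The genes whose pattern over the 12 libraries was most like that of HMOX1 were LOXL2, a lysyl oxidase, PPCDC, an enzyme of coenzyme A synthesis, and XRCC1, a scaffold of DNA single-strand break repair. The measure was the root mean square difference of row-centred log2 CPM, which was 0.115 for LOXL2, 0.137 for PPCDC and 0.147 for XRCC1, where HMOX1 itself had an SD of 0.479. Their log2 fold changes were 0.90, 0.95 and 0.94 in EW8 and 0.93, 0.60 and 0.50 in TC71. The points share libraries, so this likeness is a description.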

How the data were processed

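Raw counts per gene were deposited by the authors as 1 table with 1 column per library. Per the labels and the methods of the study, RNA was purified with a column kit, TruSeq Stranded mRNA libraries were read as 100 bp pairs on a NovaSeq instrument, checked with FastQC and mapped to hg38 with STAR; the counting tool, its strand setting and the annotation are not given in the sources used here. No row sums to less than 21.

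Counts were tested in edgeR 4.0.16 (R 4.3.3, limma 3.58.1): filterByExpr (minimum count 10, minimum total 15), TMM, a robust quasi-likelihood fit of the 4 groups, Benjamini-Hochberg adjustment over 16515 genes. The biological coefficient of variation was 4.17%. Intervals cover 95%. Alternatives were other scalings and filters, DESeq2 1.42.0, each line alone, a replicate block and each library left out. Identifiers of 19943 of 20771 genes matched GENCODE 44. Figures used matplotlib 3.10.9 in Python 3.11.15.

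The 9 genes and the pathway lists were chosen with earlier results of these data known. From each list and line, up to 3 genes were named, with the largest change among those with an adjusted p below 0.05, libraries not overlapping and at least 20 mean counts in the lower group; 7 NRF2 regulators were always named. AKR1C3 in TC71 falls outside this rule. Genes named in 1 line are given in both.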

Additional observations from a re-analysis of the deposited data

Results flagged for a closer look

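For 6 of the 8 genes the response to removal of doxycycline differed between the lines by the interaction term (edgeR quasi-likelihood test, adjusted over all 16515 genes). EW8 minus TC71, on the log2 scale, the difference was 0.44 for NFE2L2 (adjusted p = 4.08e-07), -0.45 for KEAP1 (adjusted p = 5.82e-06), -0.38 for NQO1 (adjusted p = 2.61e-05), -0.82 for GCLM (adjusted p = 2.6e-09), -0.21 for GCLC (adjusted p = 0.0312) and -0.36 for TXNRD1 (adjusted p = 9.06e-07). The difference of GCLC was the weakest: 5 of the 12 fits without 1 library lost it (adjusted p from 0.0563 without replicate 3 of EW8 at 0 h to 0.168 without replicate 2 of TC71 at 48 h; the others were replicates 1 and 3 of EW8 at 48 h and replicate 3 of TC71 at 0 h), as did scaling by total counts alone. For KEAP1 all 3 EW8 libraries at 48 h were below, and all 3 TC71 libraries at 48 h above, the libraries at 0 h of the same line.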

How the results depend on the processing

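Member log2 fold changes kept direction and side of the adjusted p threshold in 254 of 272 combinations of gene, comparison and setting, and in 364 of 384 with 1 library left out. Without a fold threshold, 6 of the 8 genes passed in EW8, 6 in TC71, 6 for the difference and 7 at 0 h, beside 1, 0, 0 and 0, and 64 and 40 pathway genes in EW8 and TC71, beside 8 and 3. With 1 library left out, the genes past both thresholds were 0 to 2 in EW8, 0 in TC71 and for the difference, and 0 to 1 at 0 h (GCLC, 1.01 without EW8 0 h replicate 2). NQO1 in EW8 changed sign around 0: 0 with DESeq2 size factors, the DESeq2 Wald test, no filter and at least 10 counts in every library, -0.03 with upper-quartile factors, -0.02 with each line alone, -0.06 to 0.03 with 1 library left out. OSGIN1 in EW8 ranged from -0.17 to 0.16 and GCLC in TC71 from -0.10 to 0.02 with 1 library left out, and GCLC in TC71 was 0.03 with total counts alone. The cause of these changes was not tested. With total counts alone, NQO1 in EW8 passed (0.13, adjusted p = 0.0138). The OSGIN1 difference passed with DESeq2 size factors (adjusted p = 0.0485), upper-quartile factors (0.0497) and at least 10 counts in every library (0.0373). The OSGIN1 call at 0 h was lost with upper-quartile factors (adjusted p = 0.0922), total counts alone (0.142) and the DESeq2 Wald test (0.0954).

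Replicate numbers did not pair the samples: deviations of same-numbered libraries within a line correlated at -0.138 to -0.0147. With the replicate block, 6, 6, 6 and 6 of the 8 genes had an adjusted p below 0.05 in EW8, in TC71, for the difference and at 0 h, and the lost call was OSGIN1 at 0 h (0.47, adjusted p = 0.0547). Depth limits OSGIN1 (19 to 70 counts) and, less so, HMOX1 (98 to 289 counts).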
